A study of Mus musculus with 16 samples.

Results

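The 9 genes described here encode 8 proteins of steroid hormone synthesis, namely *Star*, *Cyp11a1*, *Cyp17a1*, *Hsd3b1*, *Hsd17b1*, *Hsd17b3*, *Fdx1* and *Scarb1*, together with the peptide hormone *Insl3*. They were listed for their place in the steroid pathway or, for *Insl3*, for being the other hormone of the Leydig cell, and the rule that lists them uses no measured value, although earlier results of these data were known when it was written. All 9 of them were among the 30451 genes of the single count table. The data came from single-cell RNA sequencing (scRNA-seq) of whole mouse testes at postnatal day 2 (P2), dissociated with TrypLE and captured with 10x Genomics 3′ chemistry (version 3). The groups were wild type and a germ-cell-specific *Ddx5* knockout, in which *Mvh*-Cre, driven by a germ cell promoter, acted on floxed *Ddx5* alleles; in the study's breeding the knockout males were *Ddx5*-/- offspring of *Ddx5*+/- fathers and *Ddx5* flox/flox mothers. *Oct4*-GFP, a germ cell reporter, was also carried in the colony, and for this assay the labels do not give the alleles or the number of animals behind each genotype. The 16 labelled samples, 8 per genotype, were not kept apart in the table, whose barcodes carry only 2 suffixes, so that each genotype is represented by 1 library and no replicate spread between animals could be had. No test between genotypes was therefore possible, and all intervals given are exact 95% intervals that cover counting error only.

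Steroid hormones are made from cholesterol. Cholesterol is taken up at the cell surface, carried into mitochondria and cut there to pregnenolone, after which enzymes of the endoplasmic reticulum turn pregnenolone into androgens. In the fetal and newborn mouse testis the first steps belong to Leydig cells, the endocrine cells between the tubules. The last step to testosterone is known to lie in the neighbouring Sertoli cells, since fetal Leydig cells lack the dehydrogenase for it, whereas adult Leydig cells complete the pathway by themselves. INSL3, a small hormone related to insulin and relaxin, guides the descent of the testis and is not a steroid.

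The genes lie on 7 chromosomes in mouse build GRCm38 (GENCODE release M21 gene spans). *Scarb1*, the surface receptor for high-density lipoprotein that brings cholesterol esters into the cell, spans chr5:125277087-125341094 on the minus strand. *Star*, which carries cholesterol to the inner mitochondrial membrane, spans chr8:25806555-25815982 on the plus strand. *Cyp11a1*, the side-chain cleavage enzyme that makes pregnenolone, spans chr9:58006411-58027023 on the plus strand, and *Fdx1*, the ferredoxin that hands it electrons, chr9:51943306-51963556 on the minus strand. *Hsd3b1*, which turns pregnenolone into progesterone, spans chr3:98852194-98859794 on the minus strand, and *Cyp17a1*, the hydroxylase and lyase that opens the way to androgens, chr19:46667165-46673172 on the minus strand. *Hsd17b3*, known for making testosterone from androstenedione, spans chr13:64058266-64089230 on the minus strand. *Hsd17b1*, a related dehydrogenase best known for estradiol, spans chr11:101078411-101080527 on the plus strand, and *Insl3* spans chr8:71689214-71690575 on the plus strand.

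The RefSeq promoter windows (GRCm38.p6) held 6 windows for 5 of the 9 genes. Nr5a1 (steroidogenic factor 1), the nuclear receptor named for its control of this pathway, is known to bind sites with the core CAAGGT, so 200 bases were searched for these letters on both strands, from 250 to 51 bases before each RefSeq start. The letters are in 2978 of all 32851 windows (9.07%), and in 3 of the 6 windows of these genes. The 3 windows with a match are shown with that of *Hsd3b1*, which has none, because *Insl3*, *Fdx1* and *Hsd3b1* were high in Leydig cells and *Hsd17b3* in Sertoli cells. Each is written 5′ to 3′ on the gene's own strand, and capitals mark CAAGGT.
Insl3: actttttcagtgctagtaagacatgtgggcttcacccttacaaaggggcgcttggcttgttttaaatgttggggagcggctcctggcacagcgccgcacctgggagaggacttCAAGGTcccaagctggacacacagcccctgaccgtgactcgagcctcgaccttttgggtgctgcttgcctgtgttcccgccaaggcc
Fdx1: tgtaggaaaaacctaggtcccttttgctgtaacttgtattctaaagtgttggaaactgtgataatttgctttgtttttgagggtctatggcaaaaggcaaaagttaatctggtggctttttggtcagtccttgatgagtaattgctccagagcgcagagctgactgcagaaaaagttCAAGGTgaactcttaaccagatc
Hsd17b3: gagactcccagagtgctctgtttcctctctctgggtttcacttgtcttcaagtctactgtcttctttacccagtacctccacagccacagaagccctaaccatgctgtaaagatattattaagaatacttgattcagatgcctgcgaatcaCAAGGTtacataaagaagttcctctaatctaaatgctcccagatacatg
Hsd3b1: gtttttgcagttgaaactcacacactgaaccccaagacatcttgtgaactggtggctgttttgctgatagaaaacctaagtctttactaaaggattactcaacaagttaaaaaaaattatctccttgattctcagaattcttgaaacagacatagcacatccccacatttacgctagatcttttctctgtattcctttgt

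The *Insl3* stretch is chr8:71689002-71689201 on the plus strand, with the first base of CAAGGT 137 bases before the start. The *Fdx1* stretch is chr9:51963653-51963852 on the minus strand, with the match at 73 bases, and the *Hsd17b3* stretch is chr13:64089252-64089451 on the minus strand, with the match at 99 bases. The *Hsd3b1* stretch is chr3:98859845-98860044 on the minus strand. Both windows of *Cyp11a1* also lacked the letters, but neither adjoins the start of the gene span given above. The second, chr9:58014702-58014901, lies inside that span with all 200 bases in GENCODE exons, and the first, chr9:57997774-57997973, ends before the span begins. The longer forms AAGGTCA (3.36% of all windows) and CAAGGTCA (1.12%), which overlap the core, and TATAAA (9.14%) were in none of the 6 windows.

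Barcodes numbered 6763 in the wild-type library and 5423 in the other, of which 6329 and 4950 were kept, since they held 2000 genes or more and no more than 10% mitochondrial transcripts. Depth was alike, at a median of 11170 and 11668.5 unique molecular identifiers (UMIs) per kept cell, and 12 barcode sequences occurred in both libraries. The larger library was taken as wild type from the cell numbers in the study's methods, as the table does not name it. *Ddx5* in germ-gated cells stood at 1239.7 counts per 1000000 UMIs (CPM) in the wild-type library (66 cells) and at 1842 in the other (8 cells), which goes against the label, although 3′ counts of a floxed gene check the label only if the deleted part is counted. UMIs of the *CRE* row numbered 0 and 20, which runs with the label. Those of the *GFP* row numbered 488 and 22, and germ-gated cells were fewer in the second library, at 1.04% and 0.162% of the kept cells. Both of these run with the label too, as the study reported a loss of germ cells in the knockout. Since *Ddx5* in the 8 germ-gated cells alone points the other way, the second library is called the library labelled *Ddx5* knockout throughout.

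Cell types were set by gates that use none of the 9 genes, and cells that passed more than 1 gate were kept out of the types. The Leydig gate asked for 3 UMIs of *Ren1*, *Adh1* and *Hao2* together and gave 125 cells in the wild-type library and 102 in the library labelled *Ddx5* knockout. The others were Sertoli (2155 and 1590 cells, *Amh*), stroma (2854 and 2491, *Pdgfra*), myoid (54 and 25, *Acta2* and *Myh11*), macrophage (22 and 13, complement C1q) and germ (66 and 8, at least 3 of 4 germ cell markers). The myoid group is small because 1152 cells passed both the myoid and the stroma gate. As a check on the Leydig gate, *Lhcgr*, the receptor for luteinising hormone, stood at 188 and 247 CPM there against 0.119 and 0.216 in Sertoli cells. *Nr5a1* stood at 346 and 463 against 86.6 and 99.9. *Inha* and *Prlr*, also listed as Leydig markers, were as high or higher in Sertoli cells and stroma respectively, and *Thbs2* was nearly absent from the Leydig cells (2.11 and 1.12) and present in stroma (84.4 and 81.2), which goes against its place in the list. The 5 Sertoli markers set down for the check summed to 89.2 and 93.8 CPM in Leydig cells against 4472 and 3900 in Sertoli cells.

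Cells that passed the Leydig gate alone nearly all carried the enzyme genes. Of 320 kept cells with at least 20 UMIs of *Cyp11a1*, *Hsd3b1* and *Cyp17a1* together, 316 passed the Leydig gate, alone or with another gate. Only 2 of the 227 Leydig cells, which passed no other gate, had fewer. Such low counts were more frequent among the 126 cells that passed another gate too. The 24 kept cells with exactly 3 UMIs of the gate genes had *Cyp11a1* at 43.6 CPM and *Hsd17b1* at 291. Leydig cells were 1.98% and 2.06% of the kept cells. Their median depth was 14133 and 16208 UMIs, above that of stroma (9487.5 and 9596) and close to that of Sertoli cells (13461 and 15682).

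The pathway split between both cell types. Levels are in CPM of the UMIs summed over the cells of a type. On this scale 6 of the 9 genes (*Star*, *Cyp11a1*, *Cyp17a1*, *Hsd3b1*, *Fdx1* and *Insl3*) were over 5-fold higher in Leydig cells than in the other gated cells in both libraries, with 10 CPM added to each side. That threshold was passed by 125 of the 19014 genes measured, or 0.657%. *Hsd17b1* and *Hsd17b3* instead passed it in Sertoli cells, where 154 genes (0.81%) did. *Scarb1* passed it in neither type. Together the 9 genes made up 2.90% and 3.04% of all UMIs of Leydig cells, 0.0967% and 0.0947% in Sertoli cells, and 0.0167% and 0.0160% in stroma.

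**Figure D1:**
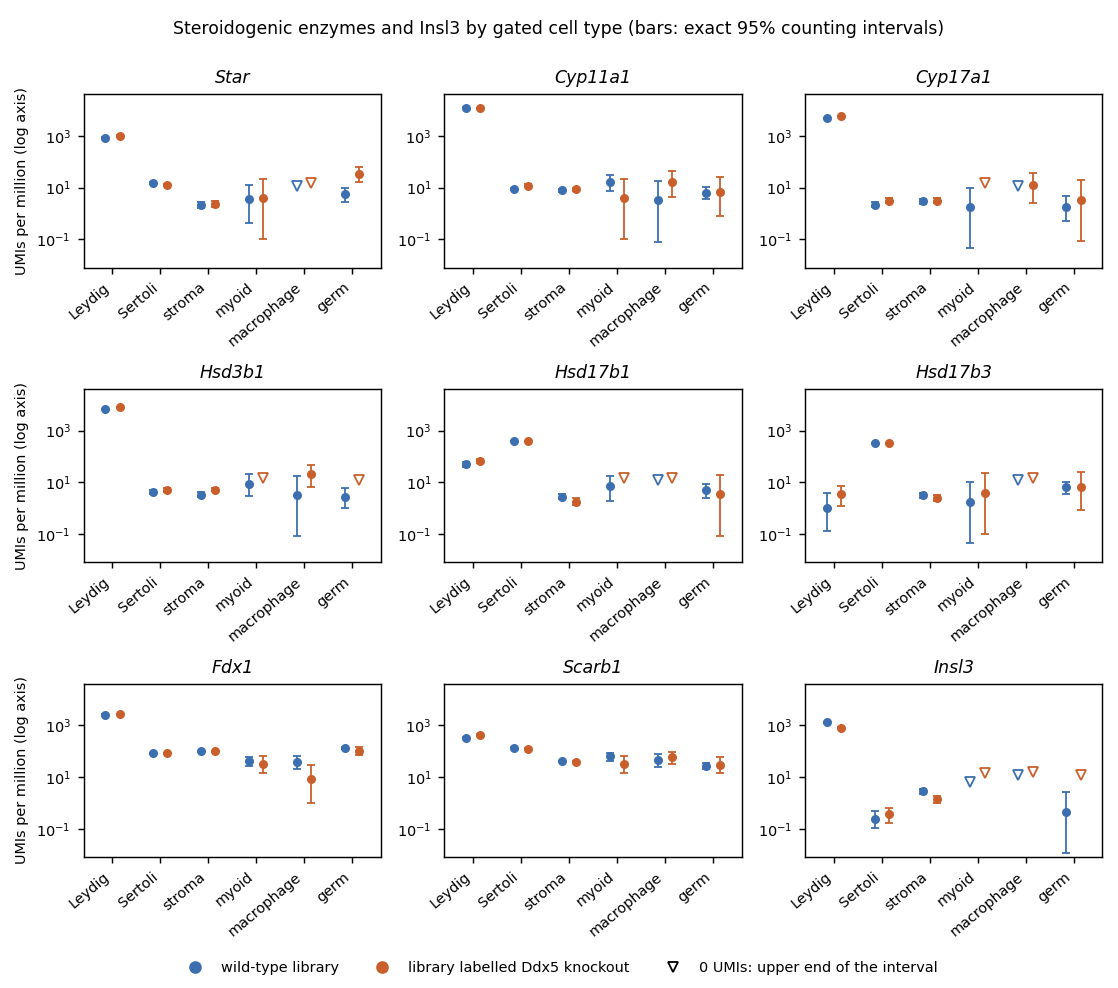
CPM (log axis) of each gene in the 6 gated cell types, with the wild-type library in blue and the library labelled *Ddx5* knockout in orange; bars are exact 95% counting intervals and open triangles give the upper end where no UMI was counted. *Cyp11a1* stood at 12196 and 11951 in Leydig cells and at 7.86 to 11.9 in Sertoli cells and stroma, whereas *Hsd17b3* stood at 326 and 315 in Sertoli cells and at 1.06 and 3.37 in Leydig cells.

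Cholesterol uptake was the least cell-type-bound step. *Scarb1* stood at 314 (289 to 340) CPM in Leydig cells of the wild-type library and at 421 (392 to 453) in those of the knockout-labelled library. In Sertoli cells it stood at 138 and 124, and in stroma at 40.4 and 37.8. Leydig cells were thus above Sertoli cells by 2.28-fold (2.09 to 2.48) and 3.39-fold (3.13 to 3.67), and Sertoli cells above stroma by 3.41-fold and 3.29-fold. Macrophages (45.03 and 56.9), myoid cells (62.1 and 31.9) and germ cells (25.8 and 30.4) could not be ordered against stroma in both libraries, since their intervals met or their order changed. Because Sertoli cells were so many, they held 59.4% and 56.4% of all *Scarb1* UMIs and Leydig cells only 7.603% and 12.3%.

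*Star*, the carrier that feeds the first enzyme, stood at 852 (811 to 894) and 1006 (960 to 1054) CPM in Leydig cells. The ratio of Leydig cells to all other gated cells was 95.4 (86.8 to 105) and 132 (118 to 147). Sertoli cells stood at 15.2 (13.9 to 16.6) and 12.5 (11.2 to 13.9), and stroma at 2.12 and 2.24. Among the genes with high Leydig levels, *Star* had the largest excess of Sertoli cells over stroma, 7.19-fold (5.52 to 9.51) and 5.59-fold (4.22 to 7.52). It was counted in 18.1% and 17.3% of Sertoli cells against 2.07% and 2.17% of stromal cells. After each cell was thinned to 5000 UMIs, leaving out 18 and 4 Sertoli cells and 63 and 55 stromal cells with fewer, these shares were 6.69% and 5.42% against 0.896% and 1.07%.

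The *Star* of Sertoli cells did not come in the proportion to *Cyp11a1* found in Leydig cells. Per *Cyp11a1* UMI, *Star* gave 0.0698 and 0.0842 UMIs in Leydig cells, 1.72 (1.49 to 1.99) and 1.05 (0.899 to 1.22) in Sertoli cells, and 0.270 and 0.266 in stroma. In the 1786 and 1238 Sertoli cells with no UMI of *Cyp11a1*, *Hsd3b1* or *Cyp17a1*, *Star* stood at 15.2 and 12.7 CPM. The level of *Star* in all Sertoli cells of the knockout-labelled library overlapped in its interval that of *Cyp11a1* there, 11.9 (10.7 to 13.3), a level from which no expression was read, and what part of the *Star* was free RNA was not tested. Of the germ-gated cells, the 8 of the library labelled *Ddx5* knockout held 10 *Star* UMIs in 4 cells (33.8 CPM, 16.2 to 62.2) and the 66 of the wild-type library 12 UMIs in 10 cells (5.43, 2.80 to 9.48). With 8 cells, that contrast, and the level above that of Sertoli cells in the same library, describe those cells and no more.

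*Cyp11a1* was the most heavily counted of the 9 genes. It stood at 12196 (12040 to 12355) CPM in Leydig cells of the wild-type library and at 11951 (11791 to 12113) in the other, and only Malat1, ribosomal protein genes and mitochondrial genes had more UMIs in these cells. A UMI here stands for the 3′ end of 1 molecule, so these counts were not divided by transcript length. Leydig cells exceeded the other gated cells 1458-fold (1340 to 1590) and 1171-fold (1076 to 1276). Sertoli cells (8.85 and 11.9) and stroma (7.86 and 8.41) differed by 1.13-fold (0.945 to 1.34) and 1.42-fold (1.19 to 1.69), so that their order held beyond counting error in 1 library only. Myoid, macrophage and germ cells held 1 to 14 UMIs each, too few to place them.

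*Fdx1*, the electron donor of *Cyp11a1* and a protein of iron-sulphur cluster biology in other cells, was counted well beyond Leydig cells. It stood at 2593 (2521 to 2667) and 2637.5 (2563 to 2714) CPM in Leydig cells. Germ cells stood at 133 and 105, stroma at 101 and 97.2, Sertoli cells at 83.2 and 83.4, myoid cells at 40.8 and 31.9, and macrophages at 38.6 and 8.13, the last from 2 UMIs in 1 of 13 cells, a level from which no expression was read. The interval of the 8 germ cells in the library labelled *Ddx5* knockout (71.2 to 149) held the levels of stroma and Sertoli cells. Leydig cells exceeded Sertoli cells 31.2-fold and 31.6-fold and germ cells 19.5-fold and 25.2-fold. *Fdx1* was thus the broadest of the 6 genes high in Leydig cells, and stroma and Sertoli cells held 20.8% to 21.5% and 19.1% to 20.4% of its UMIs.

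*Hsd3b1* stood at 6764 (6647 to 6882) and 7859 (7730 to 7991) CPM in Leydig cells, and *Cyp17a1* at 4936 (4837 to 5037) and 5686 (5576 to 5798). Leydig cells exceeded the other gated cells 1807-fold and 1534-fold for *Hsd3b1* and 1987-fold and 1822-fold for *Cyp17a1*. *Hsd3b1* has near-identical neighbours, so its counts are uncertain. *Hsd3b2*, *Hsd3b3* and *Hsd3b6*, the copies also in the table, had 0 UMIs in the Leydig cells of both libraries, where 3 UMIs would be 1.58 and 1.69 CPM, and how reads that match several copies were counted was not tested. In Sertoli cells *Hsd3b1* stood at 4.07 and 4.97 and *Cyp17a1* at 2.20 and 3.0996. In stroma they stood at 3.35 and 5.25, and at 2.91 and 3.09. Sertoli cells and stroma could not be told apart for either gene in either library, the ratios being 1.21 (0.930 to 1.59) and 0.948 (0.743 to 1.21) for *Hsd3b1*, and 0.756 (0.546 to 1.05) and 1.004 (0.732 to 1.38) for *Cyp17a1*.

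Outside Leydig cells the genes differed in whether they kept the proportion to *Cyp11a1* that they had within them. Per *Cyp11a1* UMI, *Hsd3b1* gave 0.555 (0.543 to 0.567) and 0.658 (0.644 to 0.672) UMIs in Leydig cells, 0.460 (0.373 to 0.565) and 0.417 (0.339 to 0.510) in Sertoli cells, and 0.426 (0.333 to 0.542) and 0.624 (0.4998 to 0.776) in stroma. *Cyp17a1* gave 0.405 and 0.476 in Leydig cells, 0.248 (0.190 to 0.321) and 0.260 (0.203 to 0.330) in Sertoli cells, and 0.370 and 0.367 in stroma. *Insl3* gave 0.108 and 0.0668 in Leydig cells, 0.0268 and 0.0302 in Sertoli cells, and 0.361 and 0.165 in stroma. The ratio of *Cyp17a1* was thus lower in Sertoli than in Leydig cells of both libraries, and that of *Insl3* lower in Sertoli cells and higher in stroma. That of *Hsd3b1* was lower in Sertoli cells of the knockout-labelled library and in stroma of the wild-type library, and its other intervals met those of Leydig cells. A UMI of *Cyp11a1* was counted in 10.8% and 15.0% of Sertoli cells and 5.22% and 6.46% of stromal cells, or in 4.07%, 6.05%, 3.26% and 3.74% after thinning. Median depth was 13461 and 15682 UMIs in Sertoli cells and 9487.5 and 9596 in stroma. No expression was read from levels of this size, and what part of them was free RNA was not tested.

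*Insl3* was the most narrowly confined of the genes by its level in Sertoli cells. It stood at 1323 (1272 to 1376) CPM in Leydig cells of the wild-type library and at 798 (757 to 840) in those of the knockout-labelled library. In Sertoli cells it stood at 0.238 (8 UMIs in 2155 cells) and 0.360 (10 UMIs in 1590 cells), and in stroma at 2.84 (2.26 to 3.52) and 1.39 (0.973 to 1.92). Stroma was therefore above Sertoli cells, with Sertoli-to-stroma ratios of 0.0837 (0.0350 to 0.173) and 0.260 (0.115 to 0.534). No UMI was counted in myoid cells or macrophages, whose upper limits were 6.55 to 15.0 CPM. For *Insl3*, Leydig cells exceeded the other gated cells 949-fold (771 to 1182) and 945-fold (704 to 1296). These ratios were below those of *Cyp11a1*, *Hsd3b1* and *Cyp17a1*, although in the knockout-labelled library the interval met that of *Cyp11a1*.

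The counting of *Insl3* has a limit of its own. In GENCODE release M21 the whole last exon of *Insl3*, 404 of its 623 exonic bases (64.8%), is also exonic in *Jak3*, a kinase of blood cells, on the same strand, and 3′ reads fall mostly there. Which release the authors counted with is not given in the sources used here. *Jak3* had 12 and 15 UMIs in Leydig cells (6.33 and 8.43 CPM) and 0.505 to 0.684 CPM in Sertoli cells and stroma, so it was also higher in Leydig cells. The levels of *Insl3* are for this reason uncertain in size. For *Cyp11a1*, 145 exonic bases (3.02%) are shared with the noncoding gene *Gm17322*, none of them in the last exon, and the other 7 genes share no exonic base with a gene of the same strand.

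**Figure D2:**
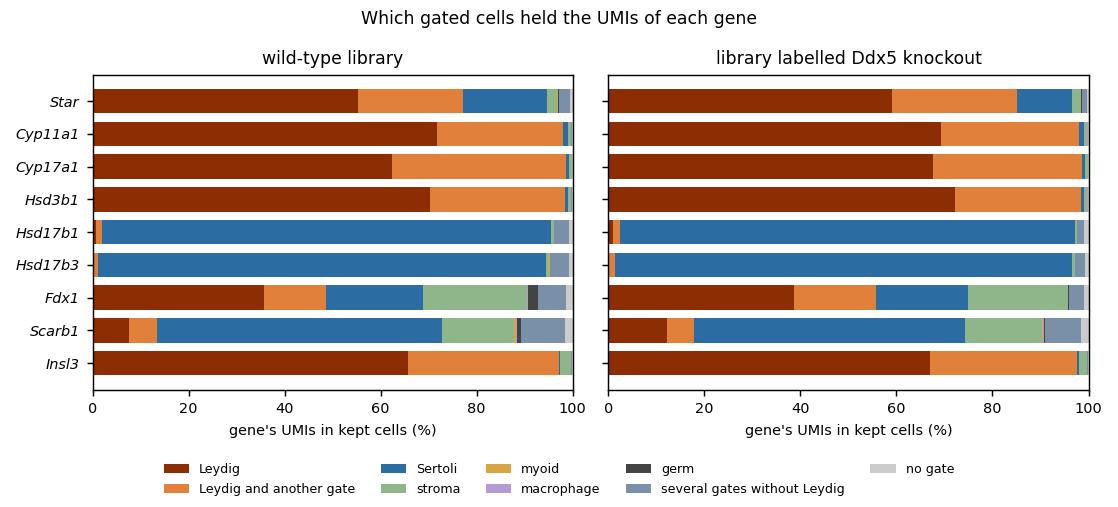
Share of each gene's UMIs (%, in kept cells) held by each set of gated cells in the wild-type library (left) and the library labelled *Ddx5* knockout (right). Leydig cells and cells that passed the Leydig gate with another gate held 97.2% to 98.7% of the UMIs of *Cyp11a1*, *Cyp17a1*, *Hsd3b1* and *Insl3*, and Sertoli cells 93.2% to 95.1% of those of *Hsd17b1* and *Hsd17b3*.

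The last enzymes of the pathway stood in Sertoli cells. *Hsd17b3*, the testosterone-forming enzyme, stood at 326 (320 to 333) and 315 (309 to 322) CPM there and was counted in 96.8% and 97.5% of Sertoli cells. After thinning these shares were 79.5% and 78.2%. Leydig cells had 2 and 6 UMIs in all, which is 1.06 (0.128 to 3.81) and 3.37 (1.24 to 7.34) CPM. That level overlapped the one in stroma, 3.15 and 2.51. The Sertoli-to-Leydig ratio was 309 (85.6 to 2553.5) and 93.5 (42.9 to 255).

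*Hsd17b1* stood at 389 (382 to 396) and 391 (383 to 398) CPM in Sertoli cells, and was counted in 98.1% and 98.3% of them (82.6% and 82.2% after thinning). In Leydig cells it stood at 50.1 (40.6 to 61.3) and 66.3 (54.9 to 79.4), which gives Sertoli-to-Leydig ratios of 7.76 (6.34 to 9.60) and 5.89 (4.91 to 7.12). Unlike *Hsd17b3*, it was above the stroma in Leydig cells, 18.3-fold (13.5 to 24.997) and 37.4-fold (26.4 to 53.7). The order was thus Sertoli, Leydig and then all others, with stroma at 2.74 and 1.77, myoid cells at 7.10 and 0, germ cells at 4.98 and 3.38, and no UMI in macrophages.

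The gates decide how far the ratios of both dehydrogenases go. Of the 353 kept cells that passed the Leydig gate, 126 passed another gate too, 47 of them that of Sertoli cells and 76 that of stroma. Some of these 126 had fewer than 20 UMIs of *Cyp11a1*, *Hsd3b1* and *Cyp17a1* together. In these 126 cells *Hsd17b3* stood at 91.8 and 96.3 CPM and *Hsd17b1* at 122 and 122, while *Cyp11a1* stood at 5661 and 6876 and *Cyp17a1* at 3608 and 3648, all between the levels of Leydig and Sertoli cells. With these cells counted in both types, the Sertoli-to-Leydig ratio fell to 7.59 and 7.40 for *Hsd17b3* and to 4.53 and 4.29 for *Hsd17b1*. The Scrublet doublet caller marked 1 Leydig cell in each library and 170 and 188 Sertoli cells, and leaving them out moved neither ratio beyond its interval.

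Within Leydig cells, the enzymes differed in how evenly they were counted. *Hsd3b1* was the most even, with the middle 80% of cells between 4624 and 9622.5 CPM in the wild-type library and between 5506 and 10756 in the library labelled *Ddx5* knockout. *Cyp11a1* lay between 6820.0 and 16915, and between 6374 and 16926. *Cyp17a1* was the most uneven of the abundant enzymes, from 281 to 9910.5 and from 246 to 10921. The cell medians were 4028 and 5272 CPM for *Cyp17a1*, 11731 and 11852 for *Cyp11a1*, and 6832 and 7960.0 for *Hsd3b1*. *Star* (medians 700.1 and 926), *Fdx1* (2315 and 2274), *Scarb1* (244 and 234) and *Insl3* (1260.5 and 768) were counted in 96% and 96.1%, 99.2% and 100%, 83.2% and 84.3%, and 98.4% and 97.1% of the Leydig cells.

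**Figure D3:**
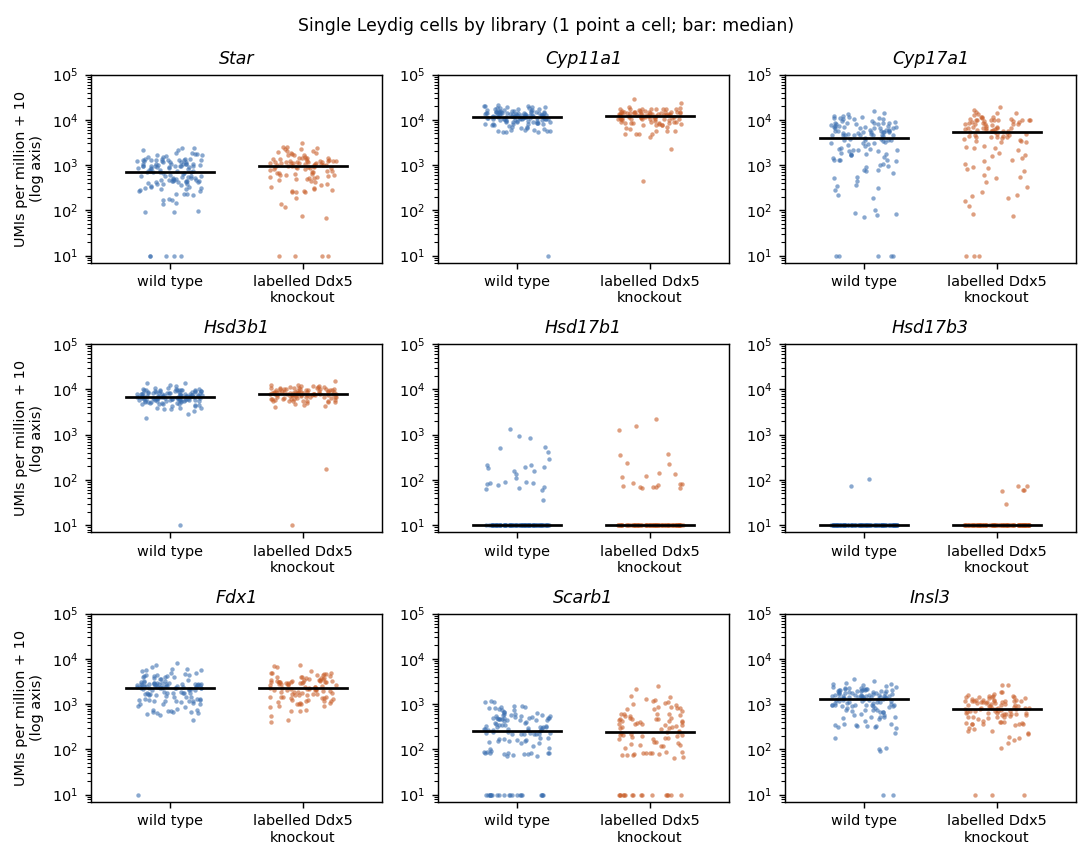
CPM + 10 (log axis) of each gene in single Leydig cells, 125 of the wild-type library (blue) and 102 of the library labelled *Ddx5* knockout (orange); black bars are medians. *Hsd3b1* forms a narrow band, *Cyp17a1* reaches down to 0 (5 and 3 cells), *Hsd17b1* is at 0 in 98 and 81 cells, and the *Insl3* median is lower in the library labelled *Ddx5* knockout (768) than in the wild-type library (1260.5).

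Cells low in *Cyp17a1* kept *Hsd3b1* but had less of several other genes. The 17 and 13 Leydig cells under 500 CPM of *Cyp17a1* had *Hsd3b1* at 6909.6 and 7728, next to 6746 and 7874 in the other Leydig cells. *Cyp11a1* stood at 8849 and 10087 in them against 12598 and 12162, *Star* at 472 and 558 against 897 and 1057, *Fdx1* at 1624 and 1503 against 2710 and 2766, and *Scarb1* at 207 and 144 against 327 and 453. *Lhcgr* stood at 103 and 99.4 against 198 and 264. Of these 30 cells, 2 were also under 1000 CPM of *Hsd3b1*, 1 of which had 0 UMIs of all 9 genes. *Insl3* differed less, at 1186 and 685 against 1339.5 and 811. The division at 500 was made after seeing the values and is a range on a continuous scale, with 9 and 7 further cells between 500 and 1000. Depth was not matched, and the cells under 500 had fewer UMIs per cell on average. Across the 227 Leydig cells, *Cyp17a1*, *Cyp11a1*, *Star*, *Fdx1* and *Scarb1* rose with a cell's UMI total (rho 0.202 to 0.372), whereas *Hsd3b1* did not (rho -0.196). What part depth had in these differences was not tested.

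*Hsd17b1* in Leydig cells came from few cells. It was at 0 in 98 of 125 and 81 of 102 Leydig cells, and the 10 highest cells held 77.9% and 89.8% of its UMIs. The 15 cells with at least 3 UMIs, 8 and 7 by library, reached up to 26 UMIs and 2171 CPM. Another 33 cells had 1 or 2 UMIs. Above 1000 CPM there were 4 of the 227 Leydig cells and 72 of the 3745 Sertoli cells, so the highest Leydig cells were at a level that few Sertoli cells reached.

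Of these 15 cells, 12 had low *Cyp17a1*, at most 1394 CPM, and 3 were at or above the median of the wild-type Leydig cells, 4028. The knockout-labelled cells among the 3, at 4644 and 4030 CPM, were under the median of their own library, 5272. Over all Leydig cells the lower quartile of *Cyp17a1* was 1302 and 1683 CPM. Summed over the 15 cells by library, *Cyp17a1* stood at 1150.5 and 2342 CPM against 5407 and 6508 in the cells without an *Hsd17b1* UMI. A single cell, called a doublet, held 239 of the 343 *Cyp17a1* UMIs in the knockout-labelled library, and without it the level there was 1095 (894 to 1326). *Hsd3b1* stood at 6930.0 and 6369.7 against 6708 and 7999.7, a ratio of 1.03 (0.959 to 1.11) in the wild-type library and 0.796 (0.744 to 0.851) in the other. *Star* (553 and 703 against 898 and 1034), *Cyp11a1* (11351 and 9176 against 12235 and 12358), *Insl3* (815 and 587 against 1398 and 813) and *Fdx1* (1531 and 1727 against 2689 and 2697) were lower in both libraries, but without the doublet *Hsd3b1* stood at 7588 (7045 to 8163) and *Insl3* at 747 (584 to 943) in the knockout-labelled library, intervals that hold the levels of the cells without *Hsd17b1*. *Star* stood there at 432 (310 to 585) and *Cyp11a1* at 9367 without the doublet. *Cyp11a1* in the wild-type library, without the cell that had most *Rhox8*, stood at 11974 (11302 to 12676), an interval that holds 12235. *Cyp21a1* had 0 UMIs in the 15 cells and stood at 70.5 and 107 in those without *Hsd17b1*. Across the 227 cells, the correlation of *Cyp17a1* with *Hsd17b1* on a log2 scale (100 CPM added) was r = -0.405 and rho = -0.375, given as a description, since cells share a library and differ in depth.

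The 5 Sertoli markers of the check were counted in these cells too. *Rhox8*, a homeobox gene of Sertoli cells, gave all 46 of their UMIs in the 8 wild-type cells and 15 of 47 in the 7 of the knockout-labelled library. The sum of the 5 markers had a median of 75.8 CPM in the 15 cells, with 1 cell at 2780.2, against 39.4 in Leydig cells without *Hsd17b1* and 4227 in Sertoli cells. The cell at 2780.2 held *Rhox8* and none of the other 4 markers. These others, *Sox9*, *Cst9*, *Aard* and *Wt1*, had 0 UMIs in the 8 wild-type cells, and in the knockout-labelled library the called doublet held 4 of 5, 14 of 14, 8 of 9 and 4 of 4 of their UMIs. *Rhox8* stood at 417 and 102 in the 15 cells against 31.9 and 37.0 in Leydig cells without *Hsd17b1*. A single wild-type cell held 32 of its 46 UMIs there, and without it the level was 142 (77.4 to 238). Without the doublet the knockout-labelled library had 42.1 (11.5 to 108). *Hsd17b3* was counted once each in 2 of them. 1 of the 15, with 51462 UMIs, was called a doublet. The part of Sertoli RNA in the *Hsd17b1* of Leydig cells was not tested beyond these values.

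**Figure D4:**
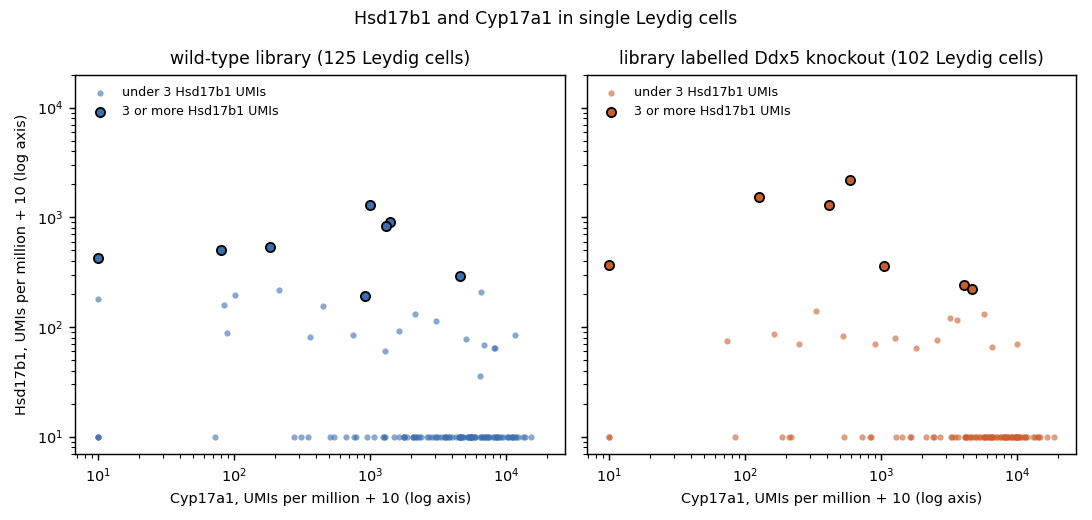
*Hsd17b1* against *Cyp17a1* in single Leydig cells (CPM + 10, both axes log), wild-type library on the left and library labelled *Ddx5* knockout on the right; outlined points are the 8 and 7 cells with at least 3 *Hsd17b1* UMIs. No outlined cell exceeds 4644 CPM of *Cyp17a1*, whereas cells at the floor of *Hsd17b1* reach 18687.

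Several pairs of abundant genes went together across the 227 Leydig cells. *Cyp11a1* and *Fdx1* had r = 0.529 and rho = 0.385, *Star* and *Fdx1* r = 0.456 and rho = 0.419, and *Star* and *Cyp17a1* r = 0.410 and rho = 0.446. The points share their library and differ in depth, and these genes also rose with a cell's UMI total (rho 0.202 to 0.372). *Cyp11a1* and *Hsd3b1* had r = 0.569 but rho = -0.112, so that the measures differ in sign. *Insl3* and *Cyp17a1* had r = 0.138 and rho = 0.0897.

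Of 56 further genes of the steroid pathway set down by group, 54 were in the table and 46 had enough UMIs to measure. Over 5-fold higher in Leydig cells in both libraries were 7 of the 46, next to 0.657% of all genes. None of the 8 genes of cholesterol supply was among them. *Fdxr*, the reductase that charges *Fdx1*, was 1 of the 4 electron donors measured and stood at 1168 and 991 CPM in Leydig cells, 354 and 298 in Sertoli cells, and 57.5 and 47.6 in stroma. *Por*, which serves *Cyp17a1* in the endoplasmic reticulum, stood at 97.1 and 102 against 19.3 and 22.3 in Sertoli cells and did not pass. Of 18 receptors and regulators, *Lhcgr*, *Nr5a1* and *Mrap*, the partner protein of the corticotropin receptor, passed in Leydig cells, and *Dhh*, the ligand by which Sertoli cells signal to the interstitium, passed in Sertoli cells (213 and 223 CPM against 25.3 and 15.2 in Leydig cells).

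Among 16 other steroid enzymes measured, 3 passed in Leydig cells. *Akr1cl*, an aldo-keto reductase, stood at 7824 and 7288 CPM, next to 839 and 884 in Sertoli cells. *Cyp21a1* and *Cyp11b1*, known for making corticosterone in the adrenal cortex, stood at 60.2 and 84.8 and at 44.9 and 50.01. *Cyp21a1* was counted in 21 Leydig cells of each library, 10 of which held 90.4% and 89.4% of its UMIs, and the corticotropin receptor *Mc2r* had 9 and 6 UMIs. Of the genes of the adult pathway, *Hsd3b6*, *Hsd17b6* and *Cyp19a1*, the aromatase, had 0 UMIs in Leydig cells, and *Sult1e1* had 3 and 1. *Ptgds* was also set down as a marker of adult Leydig cells. With *Hsd3b6* and *Sult1e1* it summed to 13.7 and 18.5 CPM in Leydig cells and to 898 and 1019 in Sertoli cells.

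Genes with the pattern most like each of the 9 were sought by Pearson's r of log2(CPM + 10) over the 12 combinations of cell type and library. *Cyp11a1*, *Cyp17a1* and *Hsd3b1* were among the 3 genes nearest to each other, at r = 0.997 to 0.998. *Oxtr*, the oxytocin receptor, was near to *Cyp11a1* (0.998) and *Hsd3b1* (0.993). *Hsd17b3* was nearest to *AU015836*, *Chp2* and *Cbln4* (each 0.995), and *Hsd17b1* to *Trim62* (0.986), with *Amhr2*, the receptor of the Sertoli hormone AMH, at 0.983. *Scarb1* was nearest to *Cst8* (0.970), *Fdx1* to *Adck5* (0.984), *Star* to *Gm38177* (0.989) and *Insl3* to *Olfr330* (0.999). Since a gene near 0 outside a single cell type gives an r near 1 to any other such gene, these values rank likeness only.

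The last comparison is that of the libraries in Leydig cells, a cell type that the germ-cell Cre does not target. Genotype, animals, dissociation and capture cannot be told apart here, as there is 1 library each. The labels also name lanes, which differ in part between the genotypes and cannot be told apart from them either. Of the 8 genes with at least 20 UMIs, *Insl3* alone was past 1.5-fold. It stood at 1323 CPM in the wild-type library and at 798 in the library labelled *Ddx5* knockout, a ratio of 0.603 (0.565 to 0.644). The same fold was passed by 1162 of 9809 genes, or 11.8%, in either direction and by 6.24% in the lower direction, most of them with far fewer UMIs. Among the 1196 genes with at least 500 UMIs in Leydig cells, 13 (1.09%) were past 1.5-fold and 8 of them lower. *Nfkbia* (0.495), *Ren1* (0.554) and *Rhob* (0.578) were the 3 with lower ratios than *Insl3*.

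The enzymes were higher in the knockout-labelled library or near to equal. *Star* had a ratio of 1.18 (1.10 to 1.26), *Hsd3b1* of 1.16 (1.13 to 1.19), *Cyp17a1* of 1.15 (1.12 to 1.18) and *Scarb1* of 1.34 (1.20 to 1.497). The median of *Scarb1* over cells was 244 in the wild-type library and 234 in the other, while the highest cell stood at 1140.4 and 2528. In Leydig-gated cells with another gate its ratio was 0.902 (0.782 to 1.04). *Cyp11a1* had 0.980 (0.962 to 0.998) and *Fdx1* 1.02 (0.977 to 1.06), both of which changed side of 1 with the cell filter, and *Hsd17b1* had 1.32 (0.255 in cells of 3000 genes or more and 5% mitochondrial UMIs or less), with an interval of 1.001 to 1.75. On the log2 scale the 8 genes had a median ratio of 0.21, and all 9809 genes one of -0.01. *Hsd17b3*, with 8 UMIs in all, was not compared. Counting intervals of genes with many UMIs are narrow, and how far such ratios vary between animals of the same genotype is unknown here.

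**Figure D5:**
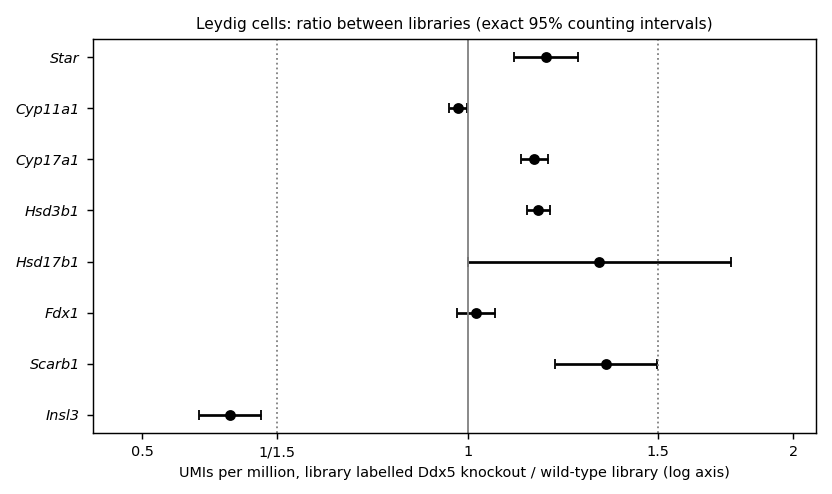
Ratio of CPM in Leydig cells, library labelled *Ddx5* knockout over wild-type library (log axis), for the 8 genes with at least 20 UMIs; bars are exact 95% counting intervals, the solid line marks 1 and dotted lines mark 1.5-fold either way. *Insl3*, at 0.603, is the only gene beyond a dotted line, and *Cyp11a1*, at 0.980, and *Fdx1*, at 1.02, lie next to 1.

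*Insl3* was also lower in the Leydig-gated cells that passed another gate and in those removed for their mitochondrial share. In the 75 and 51 cells that passed another gate too, it stood at 796 and 507 CPM, a ratio of 0.637 (0.578 to 0.702). In the 36 and 42 Leydig-gated barcodes removed by the filter it stood at 1511 and 1162, a ratio of 0.769 (0.658 to 0.900). The barcodes over 10% mitochondrial UMIs held 277 and 255 of the 331 and 321 UMIs behind that value, and the 23 and 29 removed for under 2000 genes gave 0.807 (0.555 to 1.18), an interval that holds 1. In all removed barcodes *Fdx1* (0.699, 0.629 to 0.777) and *Cyp11a1* (0.803, 0.766 to 0.842) were about as low, so *Insl3* was not set apart there. *Star* (1.48), *Cyp17a1* (1.27), *Scarb1* (1.25, 0.896 to 1.75) and *Hsd3b1* (1.09) were above 1 in them. Other ways of choosing the cells largely took the same cells again. With the gate set without *Ren1*, whose own level was 0.554-fold, the *Insl3* ratio was 0.600. Kept cells chosen by 20 UMIs of *Cyp11a1*, *Hsd3b1* and *Cyp17a1*, 177 and 143 of them, gave 0.588 (0.557 to 0.621).

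The size of the *Insl3* difference varied with the mitochondrial share, without a trend. Leydig cells had medians of 7.17% and 6.67%, next to 2.80% and 2.67% in Sertoli cells, so that the limit of 10% lay close to them and took out 13 Leydig-gated barcodes in each library. In the 13 and 14 Leydig cells with at most 5%, *Insl3* stood at 1040.2 and 879, a ratio of 0.845 (0.688 to 1.04), against 0.560 (0.501 to 0.627) between 5% and 7% and 0.623 (0.569 to 0.682) between 7% and 10%. In the 13 and 13 Leydig-gated barcodes removed for more than 10% it was 0.755 (0.634 to 0.898). *Hsd17b1* changed direction across the same divisions, from 0.233 and 0.440 to 3.03, on 5 to 94 UMIs a library. In stroma *Insl3* had a ratio of 0.489 (0.321 to 0.732) at its low level there, and in Sertoli cells, with 8 and 10 UMIs, 1.52 (0.539 to 4.42). The part of damaged cells and of free RNA in these ratios was not tested.

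In Sertoli cells none of the 8 genes with at least 20 UMIs was past 1.5-fold there, next to 9.6% of all 15720 genes. *Hsd17b1* had a ratio of 1.004 (0.979 to 1.03), *Hsd17b3* of 0.966 (0.939 to 0.994), *Scarb1* of 0.902 (0.862 to 0.942) and *Star* of 0.821 (0.714 to 0.942). The ratios of *Cyp11a1* (1.35) and *Cyp17a1* (1.41) rest on 331 and 86 UMIs or fewer a library at a level from which no expression was read. In stroma 3 of the 9 genes were past 1.5-fold, next to 8.06% of all 16038 genes. They were *Hsd3b1* at 1.57 (1.20 to 2.05), *Hsd17b1* at 0.649 (0.441 to 0.944) and *Insl3* at 0.489, each at 1.39 to 5.25 CPM, a level from which no expression was read.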

How the data were processed

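Whole testes at P2 were profiled by scRNA-seq. Per the submitters' processing notes, the authors used Cell Ranger 3.1.0, Seurat 3.1.5 and GRCm38; the annotation release is not given in the sources used here. The deposited table holds UMI counts per gene and barcode, not normalized, for all 16 labelled samples together, and barcodes carry only suffixes 3 and 4. Cells with over 2000 genes and at most 10% mitochondrial UMIs numbered 6328 and 4950, the cell numbers that the study's methods state for wild type and knockout, and suffix 3 was taken as wild type on that ground. Columns of other samples numbered 0.

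Counts were summed per gated cell type and library and divided by the summed UMIs (CPM, counts per 1000000 UMIs). Exact Poisson intervals were given for levels, exact conditional binomial intervals for ratios, and exact Clopper-Pearson intervals were computed for shares of cells, all at 95%. UMI counts of 1 library per genotype allow no test, so that no p-value was computed. Ratios between libraries were given for genes with at least 20 UMIs over both. Doublets were kept and called with Scrublet (scanpy 1.11.5) for an alternative. Python 3.11.15, NumPy 2.4.6, SciPy 1.17.1, pandas 2.3.3 and matplotlib 3.10.9 were used, and the sums and ratios were tested on simulated data. The members, gates and lists were chosen with earlier results of these data known. All 9 members and all genes of the steroid pathway list could be named, with the 5 genes most like each member; *Jak3*, *Rhox8* and the genes past 1.5-fold in Leydig cells were named after their values were seen. Alternatives changed the cell filter, the gates, the treatment of cells in several gates and of doublets, depth, scaling, weighting, pseudocount and UMI minimum.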

Additional observations from a re-analysis of the deposited data

Results flagged for a closer look

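Barcodes that the filter removed were not used in the comparisons, and 78 of them passed the Leydig gate, with a median of 1801 UMIs. *Cyp11a1* stood at 14078 CPM in them and *Insl3* at 1317, both far above the level that 3 UMIs would give there. Of these barcodes, 26 had over 10% mitochondrial UMIs and 52 had under 2000 genes.

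Kept cells that passed no gate, 374 in all, were also outside the comparisons. *Hsd17b1* stood at 62.01 CPM in them and *Hsd17b3* at 50.66, above the level of 3 UMIs. *Amh* stood at 29.1, *Sox9* at 71.6 and *Rhox8* at 123 in the same cells.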

How the results depend on the processing

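The count of 6 genes over 5-fold higher in Leydig cells was 6 under every alternative run, and the median log2 ratio between libraries stayed between 0.15 and 0.26. The count of genes past 1.5-fold between libraries was 2 in cells of 3000 genes or more and 5% mitochondrial UMIs or less, where *Insl3* (0.803) no longer passed and *Scarb1* (1.77) and *Hsd17b1* (0.255) did, on 12 and 11 Leydig cells. It was also 2 with all members of at least 1 UMI, *Hsd17b3* being added. The Sertoli-to-Leydig ratio of *Hsd17b3* fell to 7.59 and 7.40 with cells of several gates kept in each, and to 78.8 in the wild-type library after thinning. That of *Hsd17b1* was 4.53 and 4.29 with cells of several gates kept, and 4.15 and 16.3 under the stricter cell filter. The causes were not tested. The stricter filter left no *Hsd17b3* UMI in Leydig cells, so that its ratios had no value. Ratios between libraries that lay near 1 also changed side: *Cyp11a1* from 0.980 to 1.12 under the stricter filter, 1.06 with cells of several gates kept and 1.02 after thinning, and *Fdx1* from 1.02 to 0.979 with no filter and 0.985 with the limit of 20% mitochondrial UMIs. The gate without *Ren1*, the limit of 20% mitochondrial UMIs, the merged myoid class, each library alone and leaving out single *Hsd17b1* cells were chosen after seeing the data.

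No paired analysis was possible because the barcodes carry no library number, and for the same reason no labelled library could be left out. Spread between animals is unknown. Leydig cells number 125 and 102, so genes with few UMIs, such as *Hsd17b3* there, have wide intervals.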

Other observations

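Among the 13 genes with at least 500 UMIs in Leydig cells that were past 1.5-fold between libraries, *Alas1*, the first enzyme of heme synthesis, had the highest ratio of the library labelled *Ddx5* knockout to the wild-type library, 3.06 (258 and 788 CPM), next to 0.932 in Sertoli cells and 1.06 in stroma. *Mob4* (1.86), *Cyp26b1* (1.62), which degrades retinoic acid, *Chchd10* (1.59) and *Gm26917* (1.59) were also higher. *Junb* (0.625), *Idi1* (0.639), an enzyme of cholesterol synthesis, *Apoc1* (0.646) and *Inhba* (0.662) were lower. *Junb* was lower in Sertoli cells (0.583) and stroma (0.604) as well. These genes were named after their values were seen, and no test between genotypes was possible.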
